A study of Mus musculus with 6 samples.

Results

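The AP-1 and Atf3 transcription factors were followed in mouse spinal cord 3 days after a crush injury. The set was the 10 genes named Fos, Fosb, Fosl1, Fosl2, Jun, Junb, Jund, Atf3, Batf and Maff, taken by gene name from the 36629 genes in the deposited files, and each had a value in every library. Bulk RNA-seq had been made from pieces of cord covering segments T8 to T12 of C57/BL6 mice aged 3 to 5 weeks. The injured group (SCI, 3 libraries) had a laminectomy at T9 and T10, the removal of the bony roof over the cord, followed by compression of the cord for 5 seconds with a vascular clip of 60 g force. The sham group (3 libraries) had the laminectomy alone, so both groups share that surgery, and no unoperated cord was analysed here. The labels do not say that each library came from its own animal, so the p-values measure the spread between these libraries. In a piece of tissue, fewer cells of a type and less RNA per cell cannot be told apart.

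AP-1 is a family of dimers built from basic leucine zipper (bZIP) proteins. A Jun protein pairs with another Jun or with a Fos protein, and the pair binds the motif TGACTCA in the regulatory DNA of target genes. Atf3, Batf and Maff belong to the same bZIP superfamily: Atf3 binds the related motif TGACGTCA and is a well-known marker of injured neurons, Batf pairs with Jun proteins in immune cells, and Maff is a small Maf protein without an activation domain of its own. Most Fos and Jun genes are immediate early genes, switched on quickly by MAP kinase signalling, whereas Jund is known for steadier expression. Fos proteins cannot pair with each other, so the mix of Fos and Jun proteins in a cell sets which AP-1 dimers can form.

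The 150 bases before a transcription start are shown for Atf3, Jun, Fos and Maff, from RefSeq on GRCm38.p6. These 4 were chosen because a match to TGACGTCA with at most 1 mismatch was found there, on either strand, and capitals mark it. Junb, Fosl2, Fosb, Batf and Jund had 0 matches and are not shown. The Atf3 stretch lies at chr1:191183334-191183483 and the Jun stretch at chr4:95052223-95052372, both on the minus strand. The Fos stretch lies at chr12:85473740-85473889 and the Maff stretch at chr15:79347370-79347519, both on the plus strand. Each is written 5′ to 3′ in the direction of transcription.
Atf3: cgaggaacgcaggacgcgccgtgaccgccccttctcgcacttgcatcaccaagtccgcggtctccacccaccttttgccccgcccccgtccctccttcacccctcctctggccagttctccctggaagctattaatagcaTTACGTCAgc
Jun: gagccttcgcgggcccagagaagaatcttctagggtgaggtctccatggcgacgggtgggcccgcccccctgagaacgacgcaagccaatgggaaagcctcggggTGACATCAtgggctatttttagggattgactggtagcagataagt
Fos: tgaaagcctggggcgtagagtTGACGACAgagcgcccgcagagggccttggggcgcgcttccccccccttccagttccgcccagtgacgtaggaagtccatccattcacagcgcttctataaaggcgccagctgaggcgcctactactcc
Maff: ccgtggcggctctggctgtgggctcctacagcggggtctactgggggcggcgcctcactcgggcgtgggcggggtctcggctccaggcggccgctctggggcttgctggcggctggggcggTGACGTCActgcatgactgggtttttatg

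The match in Maff was exact, at position -29 from this start, which is the middle of the 3 that RefSeq lists for the gene. Atf3 had TTACGTCA at -10 (G2T, counted from 1 at the 5′ end of TGACGTCA), Jun had TGACATCA at -45 (G5A) and Fos had TGACGACA at -129 (T6A). RefSeq entries were found for 9 of the 10 genes, with 11 start sites in all. In windows running from 250 bases before to 50 bases after a start, 5 of the 11 held such a match, in 4 genes, against 12.5% of the 32851 windows of the same length over all genes. An exact TGACGTCA was in 1.79% of all windows. The motif TGACTCA (5.2% of all windows) and the CArG box, the motif of serum response factor (1.63%), were in 0 of the 11. Sequence farther than 250 bases before a start was not searched, so promoters may hold these motifs there. The RefSeq start used for Atf3 lies 34706 bases inside the gene as the files give it, and that of Jund lies 1210 bases from the start in the files. The Atf3 stretch shown overlaps an annotated exon of Atf3 itself, whereas the Jun, Fos and Maff stretches overlap no exon. These are matches of letters, and binding was not measured.

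The genes are spread over the genome (GRCm38 positions as in the files). Fos and Batf lie close together on the plus strand of chromosome 12, at chr12:85473890-85477273 and chr12:85686669-85709087. Junb and Jund are both on chromosome 8, at chr8:84976910-84978718 on the minus strand and chr8:70698949-70700616 on the plus strand. Jun (chr4:95049034-95052222) and Fosb (chr7:19302696-19310051) are on the minus strand, and Fosl1 (chr19:5447547-5455946), Fosl2 (chr5:32135801-32157842) and Maff (chr15:79346621-79359076) are on the plus strand.

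Of the 10 genes, 9 were higher in the injured cord and Jund was the exception. The values are the authors' FPKM, fragment counts scaled by gene length and by the library total, so levels can be compared between genes. Changes are SCI minus sham on log2(FPKM + 1), a scale that understates the change of low genes, and they come from limma with Benjamini-Hochberg adjustment over 17435 tested genes, where an adjusted p under 0.05 counts as past the threshold. Over all tested genes 26.7% were higher and 30.8% lower in SCI, 57.5% in either direction. The 3 SCI libraries all lay above the 3 sham libraries for 30.7% of genes and all below for 36.9%. All 10 genes passed the filter of 1 FPKM in at least 3 libraries, but Fosb, Fosl1 and Batf passed it only through the SCI libraries, which favours a higher level there, so they add nothing to the count. Of the other 7, 6 were higher. Here and below, passing only through SCI libraries means that all 3 SCI but fewer than 3 sham libraries reached 1 FPKM.

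**Figure D1:**
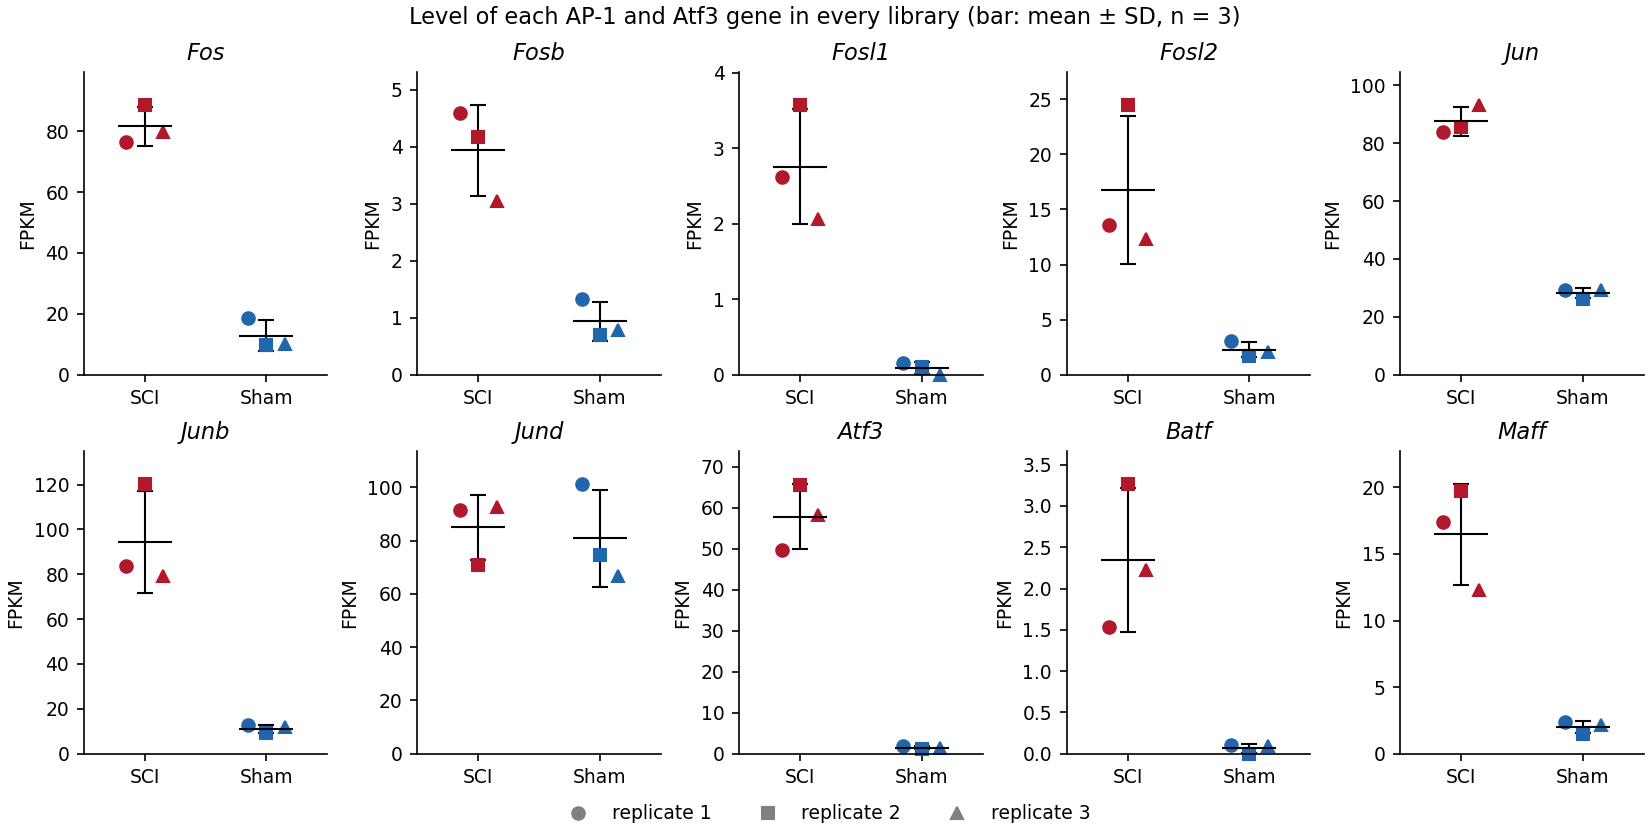
Level in FPKM (y axis, from 0, a separate scale for each gene) of the 10 genes in the 3 SCI and 3 sham libraries; symbols mark the replicate number and bars show mean ± SD (n = 3). In 9 panels every SCI library lies above every sham library, whereas the groups overlap for Jund.

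Atf3, on chromosome 1 at 191170296 to 191218039 on the minus strand (GRCm38), had the largest change of the 10. Its level was 49.6, 65.6 and 58.3 FPKM in SCI replicates 1, 2 and 3, against 1.84, 1.17 and 1.33 FPKM in sham replicates 1, 2 and 3. The groups were far apart, and the lowest injured library held many times the highest sham library. The means were 57.8 ± 8.03 FPKM in SCI and 1.45 ± 0.350 FPKM in sham cord (SD, n = 3 each), a 40.0-fold difference, and the log2 change was 4.59 (SE 0.14, limma adjusted p = 7.8e-06). Ranked by log2 change, Atf3 stood at place 20 of the 17435 tested genes.

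Among the Fos genes, Fos was the most abundant. It encodes the founding partner of Jun in AP-1 and is used as a marker of recent cell stimulation. Fos was at 76.4, 88.7 and 79.6 FPKM in SCI replicates 1, 2 and 3, against 18.7, 9.72 and 10.2 FPKM in sham replicates 1, 2 and 3. Sham replicate 1 stood above the other sham libraries for this gene, yet far below the injured ones. The means were 81.6 ± 6.41 and 12.9 ± 5.03 FPKM in SCI and sham cord (6.34-fold, log2 change 2.63, SE 0.22, limma adjusted p = 0.00012).

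Fosl2, which encodes Fra-2, a Fos protein that lacks the strong activation domain of Fos, was at 13.6, 24.5 and 12.3 FPKM in SCI replicates 1, 2 and 3, against 3.05, 1.72 and 2.04 FPKM in sham replicates 1, 2 and 3. SCI replicate 2 was well above the other injured libraries, and the groups did not overlap. The mean was 7.40-fold higher in SCI, with a log2 change of 2.40 (SE 0.27, limma adjusted p = 0.00037).

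Fosb and Fosl1 were low genes. Fosb, whose truncated splice form (delta FosB) is known to persist in neurons, was at 4.59, 4.18 and 3.04 FPKM in SCI and 1.33, 0.70 and 0.78 FPKM in sham replicates 1, 2 and 3 (log2 change 1.35, SE 0.19, limma adjusted p = 0.00097). The values are totals over a gene, so the splice forms of Fosb were not separated. Fosl1, which encodes Fra-1, was at 2.62, 3.58 and 2.07 FPKM in SCI replicates 1, 2 and 3, and listed at 0.16, 0.10 and 0 FPKM in sham replicates 1, 2 and 3. The gene was near the bottom of the scale in sham cord and present in every injured library. The lowest SCI value was 12.9 times the highest sham value, and the log2 change was 1.77 (SE 0.19, limma adjusted p = 0.00031). Fosl1 overlaps Ccdc85b on the opposite strand, and how strand was handled in the quantification was not stated, so reads of these genes may be mixed. Ccdc85b averaged 21.5 FPKM over all libraries, above every value of Fosl1.

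The Jun genes differed from one another. Junb, which can restrain the activity of Jun, was at 83.9, 120 and 79.0 FPKM in SCI replicates 1, 2 and 3, against 12.6, 9.11 and 11.7 FPKM in sham replicates 1, 2 and 3. SCI replicate 2 was again the highest, and the groups were far apart. The mean was 8.47-fold higher in SCI (94.4 ± 22.6 against 11.2 ± 1.83 FPKM, log2 change 2.96, SE 0.18, limma adjusted p = 3.2e-05).

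Jun, the main target of the Jun N-terminal kinases, was at 83.9, 85.6 and 93.3 FPKM in SCI replicates 1, 2 and 3, against 29.2, 26.1 and 29.3 FPKM in sham replicates 1, 2 and 3. Replicates lay close together in both groups. The mean was 3.11-fold higher in SCI, with a log2 change of 1.60 (SE 0.08, limma adjusted p = 1.7e-05). Jun overlaps the antisense gene Junos, so some of its reads could belong to that transcript. Junos was listed at only 0.98 FPKM on average over all libraries, far below Jun.

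Jund was at 91.6, 70.9 and 92.6 FPKM in SCI replicates 1, 2 and 3, against 101, 74.5 and 66.7 FPKM in sham replicates 1, 2 and 3. The highest and the lowest of the 6 values were both sham libraries. The log2 change was 0.08 (SE 0.17, limma adjusted p = 0.70), with a 95% interval of -0.32 to 0.49. That interval lies below the whole interval of Jun, 1.41 to 1.79, and of Junb, 2.53 to 3.39. Without sham replicate 3 the log2 change of Jund was -0.04.

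Batf and Maff were both higher. Maff was at 17.4, 19.7 and 12.3 FPKM in SCI replicates 1, 2 and 3, against 2.36, 1.48 and 2.15 FPKM in sham replicates 1, 2 and 3 (8.26-fold, log2 change 2.53, SE 0.19, limma adjusted p = 7.5e-05). Every injured library was far above every sham library. Batf was at 1.54, 3.27 and 2.22 FPKM in SCI replicates 1, 2 and 3, and listed at 0.10, 0 and 0.09 FPKM in sham replicates 1, 2 and 3 (log2 change 1.62, SE 0.22, limma adjusted p = 8e-04). Batf was thus close to the lower limit of the table in sham cord. Markers of T cells and dendritic cells, in which Batf is known to act, summed to 15.5, 16.1 and 17.8 FPKM in SCI and 19.1, 20.1 and 21.8 FPKM in sham replicates 1, 2 and 3. Of these 12 genes 4 were tested, with 1 higher (Itgax) and 1 lower (Flt3). Itgax passed the filter only through SCI libraries, as 2 sham libraries reached 1 FPKM. Flt3 averaged 4.62 FPKM in SCI and 10.97 FPKM in sham cord, a large part of the sham sum. The lower sum does not describe most of the list, as 8 of the 12 genes had a higher mean in SCI. Every SCI library lay above every sham library for 3 genes (Itgax, Ccr7 and Xcr1) and below for Flt3 alone. Ccr7, which was not tested, was at 1.15, 1.37 and 0.55 FPKM in SCI and 0, 0.05 and 0.07 FPKM in sham replicates 1, 2 and 3. Cd3d, Cd3e, Cd3g, Cd4, Cd8a and Xcr1 were under 0.5 FPKM in every SCI library, whereas the T-cell receptor gene Trac was at 3.05, 2.97 and 4.54 FPKM in SCI and 3.50, 4.62 and 5.85 FPKM in sham replicates 1, 2 and 3 and did not pass. The part of these cells in the level of Batf was not tested.

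**Figure D2:**
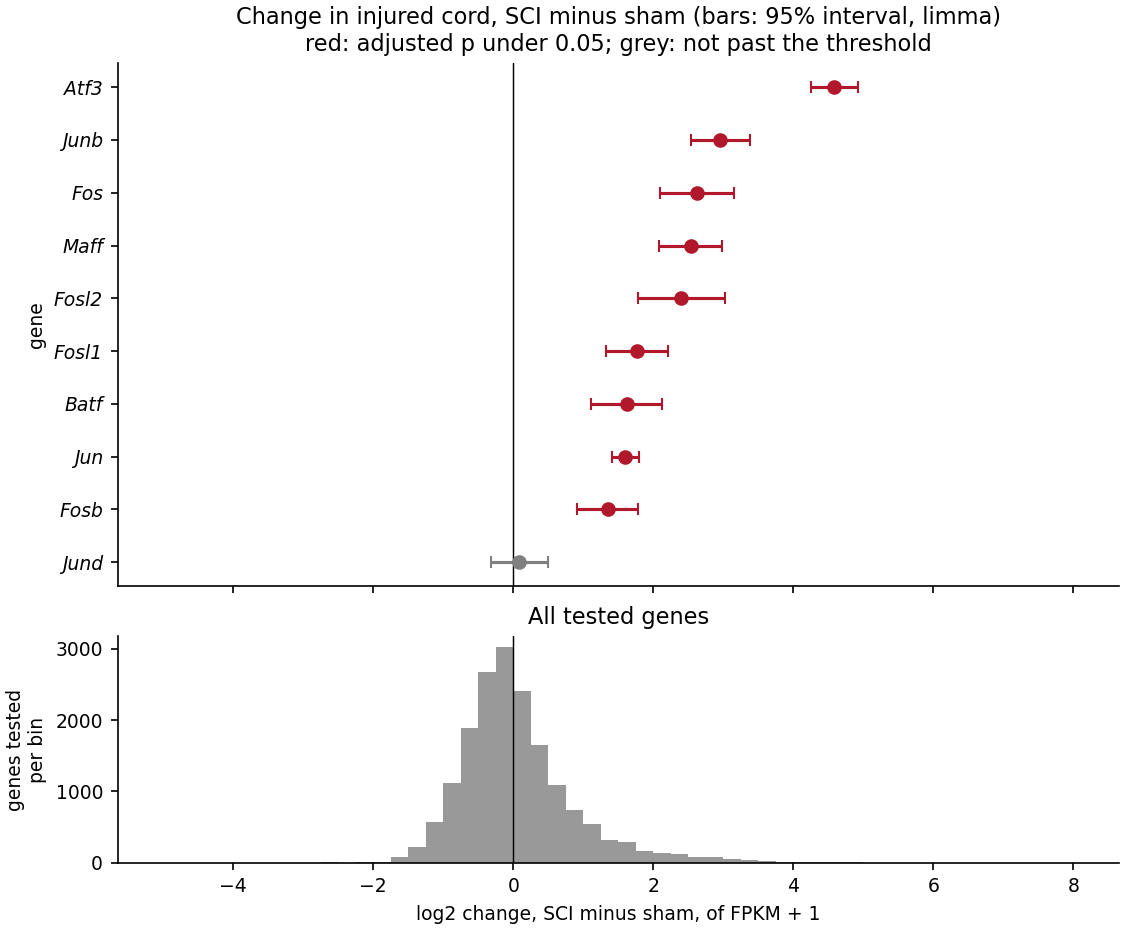
Upper panel: log2 change (x axis, SCI minus sham, of FPKM + 1) of each gene with its 95% interval from limma, red where the adjusted p was under 0.05. Lower panel: number of tested genes per bin of log2 change. Atf3 lies farthest to the right at 4.59, and the interval of Jund spans 0.

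The order of the levels differed between the groups. In injured cord Junb (94.4 ± 22.6 FPKM), Jun (87.6 ± 5.04), Jund (85.0 ± 12.3) and Fos (81.6 ± 6.41) stood at the top and did not differ beyond their spread (SD, n = 3 each). Atf3 came next, with its highest library below the lowest library of each of these 4 genes. Fosl2 and Maff followed at 16.8 ± 6.71 and 16.5 ± 3.79 FPKM with overlapping libraries, and Fosb, Fosl1 and Batf overlapped at the bottom. In sham cord Jund stood alone at 80.9 ± 18.2 FPKM, above Jun at 28.2 ± 1.83 FPKM. Fos and Junb overlapped at 12.9 ± 5.03 and 11.2 ± 1.83 FPKM, and the other 6 genes averaged 2.27 FPKM or less. Atf3 was in place 5 of the 10 genes in injured cord and in place 7 in sham cord.

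Jund made up a smaller part of the Jun transcripts in injured cord than in sham cord, where it was the larger part in every library. Jund made up 35.3%, 25.6% and 35.0% of the summed Jun, Junb and Jund FPKM in SCI replicates 1, 2 and 3, against 70.8%, 67.9% and 61.9% in sham replicates 1, 2 and 3. The groups did not overlap. Junb made up 32.3%, 43.5% and 29.8% in SCI replicates 1, 2 and 3, against 8.82%, 8.31% and 10.9% in sham replicates 1, 2 and 3, and in SCI replicate 2 it was the largest of the 3 parts. Its mean share was 35.2 ± 7.28% in SCI and 9.33 ± 1.35% in sham cord, and that of Jun was 32.8 ± 2.20% in SCI and 23.8 ± 3.42% in sham cord (SD, n = 3 each). The sum itself was 267 ± 8.89 FPKM in SCI and 120 ± 19.9 FPKM in sham cord, a 2.22-fold difference. For the sum and for each of these shares the exact permutation test gave p = 0.10 (two-sided), the smallest value that 3 libraries against 3 allow.

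The summed Fos transcripts were 6.50-fold higher in SCI, at 105 ± 13.8 FPKM in SCI and 16.2 ± 6.12 FPKM in sham cord (exact permutation p = 0.10, the smallest possible). Here the make-up stayed close: Fos itself was 78.0 ± 4.40% of the sum in SCI and 79.4 ± 1.03% in sham cord, and the groups overlapped (exact permutation p = 0.80). The difference in the share of Fos was -1.42 percentage points, and it was 0.912 without SCI replicate 2. Fosl1 made up 2.60 ± 0.421% of the sum in SCI libraries, against 0.689%, 0.817% and 0% in sham replicates 1, 2 and 3. Fosb made up a smaller share in SCI, at 3.77 ± 0.840% against 5.81 ± 0.148% in sham cord, with no overlap (exact permutation p = 0.10 for both).

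**Figure D3:**
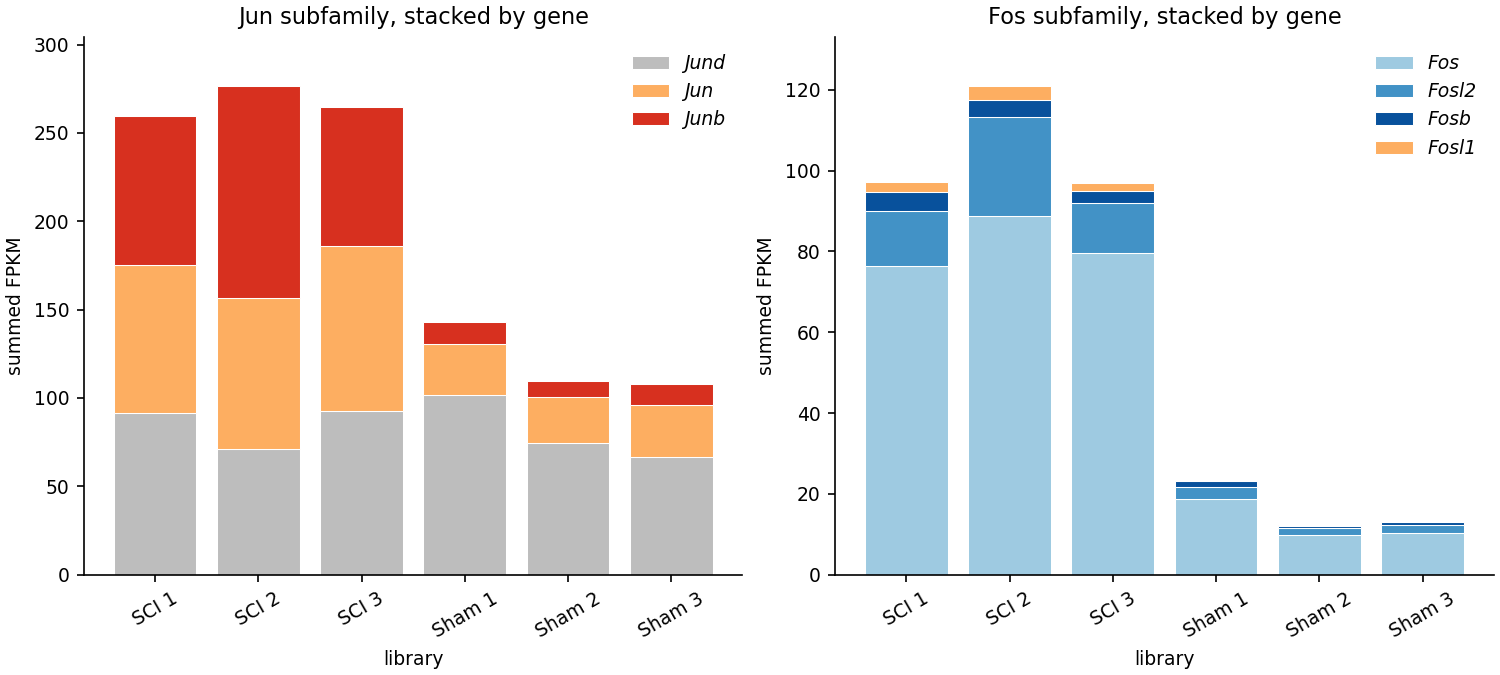
Summed FPKM (y axis) of the Jun genes (left) and the Fos genes (right) in each library (x axis), stacked by gene. The grey Jund part is alike in SCI and sham bars while Jun and Junb add to the SCI bars, and Fos fills most of every bar on the right.

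Other bZIP factors that can pair with AP-1 proteins or share their sites were mostly higher. Of 25 such genes 23 were tested, 14 were higher and 2 lower, with a median log2 change of 0.38 against -0.08 over all tested genes. The shares over all tested genes were 26.7% higher and 30.8% lower. Batf3 and Cebpb passed the filter only through SCI libraries, and of the other 21 genes 13 were higher. Cebpd, a C/EBP factor induced by inflammatory cytokines, was at 35.0 FPKM on average in SCI and 2.45 FPKM in sham cord (log2 change 3.43, SE 0.21, limma adjusted p = 3.2e-05). Cebpb, its close relative in macrophages, had a log2 change of 2.59 (SE 0.33, adjusted p = 0.00068). The abundant Atf4, the effector of the integrated stress response, was slightly higher (log2 change 0.38, adjusted p = 0.016). Nfe2l1, a regulator of proteasome genes, was lower (-0.34, adjusted p = 0.0059).

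Genes of the JNK cascade, which lies upstream of Jun, mostly went the other way. The JNK cascade carries stress signals through MAP3 kinases and MAP2 kinases to the kinases that phosphorylate Jun. Of its 18 genes all were tested, 14 were lower and 2 higher, with a median log2 change of -0.62. The shares over all tested genes were 30.8% lower and 26.7% higher. Mapk10, the neuronal kinase JNK3, was at 24.3, 16.5 and 27.4 FPKM in SCI replicates 1, 2 and 3, against 48.0, 52.7 and 49.5 FPKM in sham replicates 1, 2 and 3 (log2 change -1.14, SE 0.17, limma adjusted p = 0.0014). The scaffold genes Mapk8ip2 (log2 change -1.03) and Mapk8ip1 (-0.56) were lower as well. Transcript levels say nothing of kinase activity, which was not measured.

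Neuronal transcripts moved with this list. Of 12 neuronal markers 11 were lower, against 30.8% of all tested genes. Their summed level was 2242, 1611 and 2803 FPKM in SCI replicates 1, 2 and 3, against 5353, 6215 and 5349 FPKM in sham replicates 1, 2 and 3. Their part in the lower JNK cascade genes was not tested. The 2 genes of the list that were higher were Map3k11 (log2 change 0.34, adjusted p = 0.0081) and Map3k1 (0.29, adjusted p = 0.049), both named after their values were seen. The list had 1 higher gene in place of 2 without SCI replicate 2, without SCI replicate 3 or without any 1 of sham replicates 1, 2 and 3.

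The ERK and p38 kinases with the serum response factor genes, which act on the Fos promoter, had 9 of 17 tested members higher and 3 lower. The shares over all tested genes were 26.7% higher and 30.8% lower. Elk3, an ETS partner of serum response factor, was 5.88-fold higher in SCI (29.7 against 5.05 FPKM, log2 change 2.34, SE 0.12, limma adjusted p = 1.6e-05). Rps6ka3, which encodes the ERK-activated kinase RSK2, had a log2 change of 1.48 (SE 0.31, adjusted p = 0.0056). The abundant Mapk3 (ERK1) and Map2k1 (MEK1) did not pass, with log2 changes of 0.20 and -0.04.

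Phosphatases that switch MAP kinases off had 5 of 10 members higher and 1 lower. Dusp2 and Dusp5, each with 2 sham libraries at 1 FPKM, passed the filter only through SCI libraries, and of the other 8 genes 3 were higher. Over all tested genes 26.7% were higher, so this count does not set the phosphatases apart. Dusp1, an early-response phosphatase of JNK and p38, was at 68.6, 73.7 and 73.0 FPKM in SCI replicates 1, 2 and 3, against 12.4, 11.5 and 14.6 FPKM in sham replicates 1, 2 and 3 (log2 change 2.40, SE 0.10, limma adjusted p = 1.2e-05). Its replicates were close in both groups. Dusp5, specific for ERK, was at 16.9, 29.5 and 9.34 FPKM in SCI and 2.12, 1.31 and 0.91 FPKM in sham replicates 1, 2 and 3 (log2 change 2.89, SE 0.38, adjusted p = 0.00076). Dusp3, the most abundant of the group by the mean over all 6 libraries but below Dusp1 in injured cord, did not pass (-0.02).

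Most genes in a list of 20 known AP-1 targets were higher. The list was chosen with earlier results of these data known, so its count is no test of AP-1 activity. Over all tested genes 26.7% were higher and 30.8% lower. Of the 20 listed, 18 were tested and 16 were higher, 0 lower, with a median log2 change of 3.82. Of these, 6 passed the filter only through SCI libraries, which favours a higher level there, and they raise that count. Of the other 12 tested genes 10 were higher. Timp1, an inhibitor of matrix metalloproteinases, was at 394, 720 and 243 FPKM in SCI replicates 1, 2 and 3, against 2.75, 2.04 and 2.34 FPKM in sham replicates 1, 2 and 3 (log2 change 6.93, SE 0.35, limma adjusted p = 1.6e-05). Thbs1, the matrix glycoprotein thrombospondin 1, had a log2 change of 5.83, Hmox1, the haem-degrading enzyme, 5.74, and Spp1, osteopontin, was 16.7-fold higher. Mmp9 (0.72) and Vegfa (0.45) did not pass, and 16 to 18 of the list were higher over the libraries left out. SCI replicate 2 held the top injured value for 18 of the 20 genes, and the share of all tested genes with their top there was not computed. Many factors besides AP-1 act on these genes, and binding was not measured.

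In a list of genes known to accompany Atf3 in neurons with cut axons, 10 of 11 tested were higher and 1 lower. Over all tested genes 26.7% were higher and 30.8% lower. This list too was chosen with earlier results of these data known. Sprr1a passed the filter only through SCI libraries, and 9 of the other 10 tested genes were higher. The list had 8 higher genes with no filter and 8 to 10 over the libraries left out. Sprr1a, a small proline-rich protein of regrowing axons, was at 79.3, 84.2 and 97.0 FPKM in SCI replicates 1, 2 and 3, against 0.17, 0.27 and 1.40 FPKM in sham replicates 1, 2 and 3 (log2 change 5.84, SE 0.26, limma adjusted p = 1.2e-05). Hspb1, the heat shock protein HSP27, was 11.7-fold higher (log2 change 3.51, SE 0.22), and Gap43, a growth cone protein, 1.51-fold higher (log2 change 0.58, adjusted p = 0.012). The gene that was lower, Stmn2, a regulator of axonal microtubules named after its values were seen, had a log2 change of -0.66 (adjusted p = 0.024), and its call ended without SCI replicate 1 or without any 1 of the sham replicates. Several of these genes are not confined to neurons, and which cells made the transcripts was not measured.

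**Figure D4:**
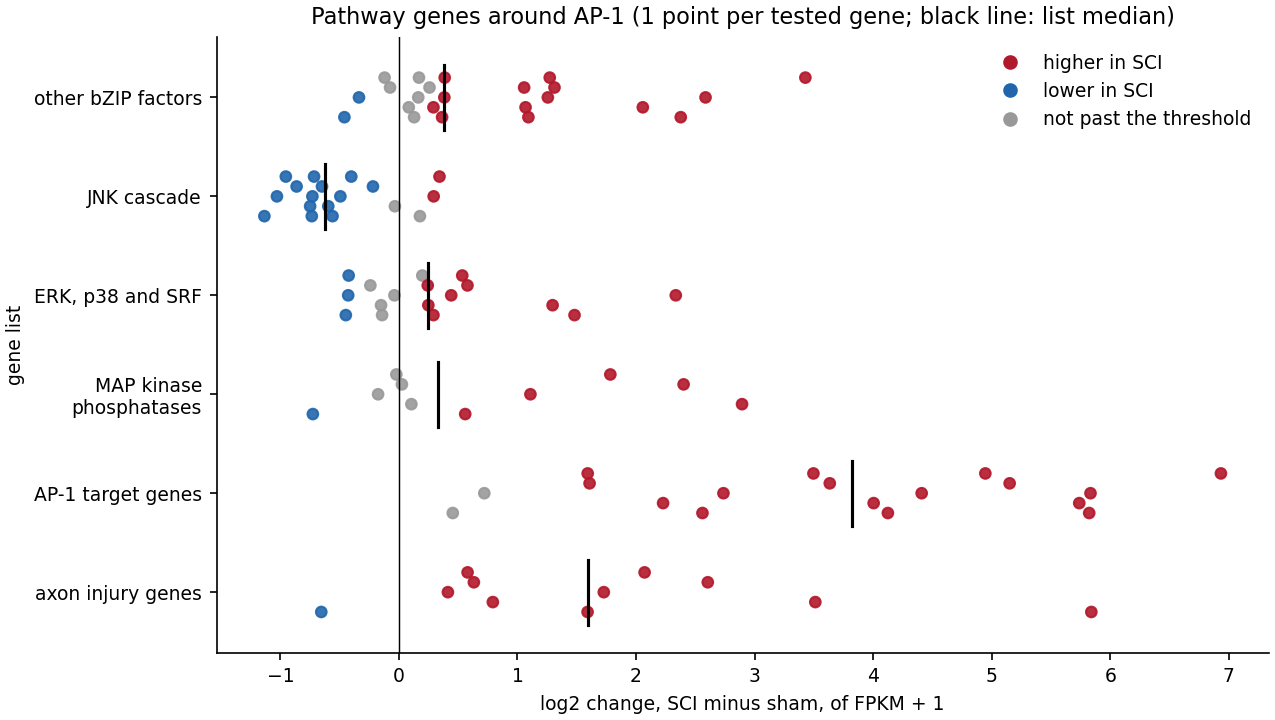
Log2 change (x axis, SCI minus sham, of FPKM + 1) of each tested gene in 6 lists of genes around AP-1, with list medians as black lines. Most JNK cascade genes lie left of 0, with a median of -0.62, and most AP-1 target genes lie right of 0, with a median of 3.82.

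The genes whose profile over the 6 libraries was most like that of Atf3 were Lilrb4a, Msr1 and Cd68. Likeness was the root mean square difference between log2(FPKM + 1) values centred on each gene's mean, searched over 11842 genes averaging 5 FPKM or more, so genes with a like difference between the groups come out alike. Lilrb4a, an inhibitory receptor of myeloid cells, differed from Atf3 by only 0.060, at 40.5, 54.7 and 46.7 FPKM in SCI replicates 1, 2 and 3 and 1.57, 0.78 and 1.04 FPKM in sham replicates 1, 2 and 3. Msr1 and Cd68, which encode macrophage scavenger receptors, differed by 0.15 and 0.17. For Jun the nearest genes were Sdf2l1 (0.071), Palld (0.075) and Irgm1 (0.080), and for Fos they were Ifitm1 (0.15), Ifitm2 (0.17) and Tk1 (0.18).

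The injured libraries were not alike in their make-up. SCI replicate 2 held the top injured value for 7 of the 10 genes, and Fosl2 (1.46 times the SCI mean) and Batf (1.40 times) stood out most, whereas Jund was lowest there (0.83 times). The share of all tested genes with their top injured value there was not computed, so this count does not set the 10 genes apart. SCI replicate 2 also held the top injured value for 9 of 11 macrophage and 7 of 8 fibroblast markers, and for 0 of 12 neuronal markers. Jun and Fos varied little, from 0.96 to 1.07 and from 0.94 to 1.09 times their SCI means. In the same library the haemoglobin genes took 6.16% of the FPKM, against 0.66% in SCI replicate 1, 0.21% in SCI replicate 3 and 0.11% to 0.13% in sham libraries. Neutrophil markers summed to 305, 727 and 160 FPKM in SCI replicates 1, 2 and 3, against 51.8, 26.1 and 22.1 FPKM in sham replicates 1, 2 and 3, and 9 of 10 were tested and higher, 4 of which passed the filter only through SCI libraries. Macrophage markers summed to 1716, 2902 and 2034 FPKM in SCI and 185, 136 and 183 FPKM in sham replicates 1, 2 and 3, with 11 of 11 higher, 6 of which passed the filter only through SCI libraries. Of 10 microglial markers, all with signal in sham cord, 9 were higher, against 26.7% of all tested genes. Fibroblast markers summed to 529, 975 and 570 FPKM in SCI and 129, 62.2 and 123 FPKM in sham replicates 1, 2 and 3. All 8 were higher, 1 of which passed the filter only through SCI libraries. The part of these cells in the levels of the AP-1 genes was not tested. Without SCI replicate 2 the same count of 9 genes was higher, with log2 changes of 4.49 to 4.70 for Atf3 and 2.11 to 2.58 for Fosl2 over the libraries left out.

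SCI replicate 3 held transcripts of other tissues. Markers of sensory ganglion neurons, in which Atf3 is strongly induced by nerve injury, summed to 64.3, 48.4 and 205 FPKM in SCI replicates 1, 2 and 3, against 146, 177 and 140 FPKM in sham replicates 1, 2 and 3. The sodium channel gene Scn10a, specific to such neurons, was at 6.60 FPKM in SCI replicate 3 and listed at 0 in the other 5 libraries. Most of the sum came from Prph and Calca, which were also at 81.0 to 106 and 53.1 to 64.3 FPKM in sham libraries. Without SCI replicate 3 the log2 change of Atf3 was 4.58, against 4.59 with it. The part of ganglion tissue in the other libraries was not tested. Skeletal muscle markers summed to 47.3, 12.2 and 457 FPKM in SCI and 37.2, 20.2 and 115 FPKM in sham replicates 1, 2 and 3, and 5 of the 9 AP-1 and Atf3 genes that were higher had their lowest injured value in SCI replicate 3. Markers of cord tissue were present throughout: oligodendrocyte markers summed to 4825 to 6311 FPKM in SCI and 7930 to 8582 FPKM in sham libraries, and astrocyte markers to 4448 to 4668 FPKM in SCI and 3259 to 3401 FPKM in sham libraries. Of the 10 astrocyte markers 4 were higher and 6 lower, and Gfap alone was at 2781 ± 63.0 FPKM in SCI and 641 ± 116 FPKM in sham cord (SD, n = 3 each).

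**Figure D5:**
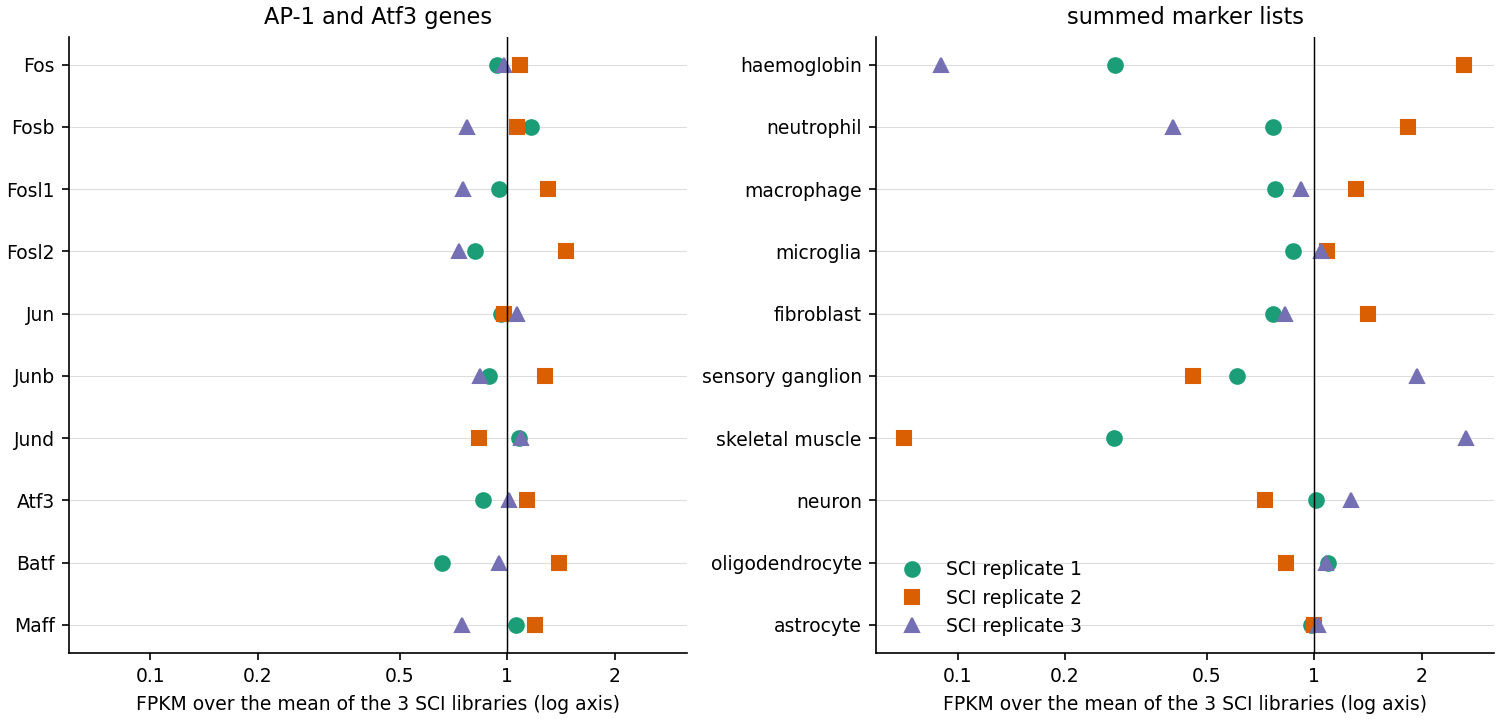
Level in each SCI library over the mean of the 3 SCI libraries (x axis, log scale), for each gene (left) and for summed marker lists (right). SCI replicate 2 (squares) lies highest for 7 of the 10 genes and for haemoglobin, neutrophil, macrophage, microglial and fibroblast markers. SCI replicate 3 (triangles) lies highest for ganglion, muscle, neuronal and astrocyte markers.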

How the data were processed

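RNA-seq libraries had been made with poly(A) selection, dUTP strand marking and adapters with molecular identifiers, per the labels' protocols, from RNA with an integrity number above 7. Each deposited table gives FPKM per gene, computed by the authors and named so in its header. Without roles, the tools edgeR, DESeq2, StringTie 1.3.4d, HISAT2 2.0.4, cutadapt 1.9 and UMI-tools and the build mm9 are named in the submitters' processing notes. The gene coordinates are however those of GRCm38: of 36502 gene identifiers also in GENCODE M21, 91.7% lay at identical positions. No whole-read steps were found (the fullest bin of ratios between libraries held at most 3.54% of low short genes), so the depth is unknown and no count test was run. FPKM summed to 716215 to 734791 per library, and 16774 to 17202 genes reached 1 FPKM.

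The 17435 genes that reached 1 FPKM in 3 or more libraries entered the fit. It used limma 3.58.1 (R 4.3.3) on log2(FPKM + 1), group as the only term and a variance trend over mean level, and was first tested on simulated data. Single sums and shares were tested with exact permutation over all 20 splits (SciPy 1.17.1). Genes, lists and rules were chosen with earlier results of these data known. Named were the 10 genes, the 2 largest changes past the threshold and the 2 most abundant genes of each list, and the 3 genes most alike to Atf3, Jun and Fos. Ddit3 has 2 rows, of which the one with signal was used. Alternatives covered the pseudocount, filter, scaling, mitochondrial and haemoglobin genes, variance trend, replicate block and each library left out.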

Additional observations from a re-analysis of the deposited data

How the results depend on the processing

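Over 137 comparisons of a gene's log2 change with an alternative, 136 kept their direction and side of the threshold. The exception was Jund without sham replicate 3, at -0.042 against 0.08, and its log2 change ran between -0.042 and 0.257 when 1 library was left out. With a pseudocount of 0.1 the low genes changed more, Fosl1 by 4.01 and Batf by 3.91 on the log2 scale, as the smaller constant damps less. The filter of a mean of 5 FPKM removed Fosb, Fosl1 and Batf, which left 6 higher. Median-ratio scaling put the median change of all genes at -0.01 and quantile normalization at -0.13, against -0.08. The share of Fos differed by 0.912 percentage points without SCI replicate 2, against -1.42, with a range of -3.46 to 0.912 over the libraries left out. The cause was not tested. In the JNK cascade list 1 gene in place of 2 was higher with no filter, with a mean of 5 FPKM, with quantile normalization, without mitochondrial and haemoglobin genes and with the replicate block, and 1 to 2 over the libraries left out. Of the phosphatases 3 were higher with a mean of 5 FPKM, which removes low genes, and 2 were lower with quantile normalization. Of the axon injury genes 0 were lower with no filter and 0 to 1 over the libraries left out. The count higher among them was 8 with no filter and 8 to 10 over the libraries left out, against 10. Deviations of same-numbered libraries from their group means correlated by -0.04 to 0.02, which gave no sign of pairing. Such correlations cannot exclude that same-numbered libraries shared a day or batch. With the replicate block 9 of the 10 genes were higher, as without it, and 4398 genes in all were higher and 5045 lower, against 4653 and 5371. With 3 libraries a group, a permutation test cannot pass 0.05.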

Other observations

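Some bZIP and injury genes outside the tests had values of interest. Nfe2, a bZIP factor of blood-forming cells, was too low to test, at 0.63, 2.14 and 0.75 FPKM in SCI replicates 1, 2 and 3, against 0, 0.07 and 0.12 FPKM in sham replicates 1, 2 and 3. Batf2, a relative of Batf induced by interferon, was at 0.26, 0.39 and 0.48 FPKM in SCI and 0.21, 0.37 and 0.47 FPKM in sham replicates 1, 2 and 3, and Batf3, which guides dendritic cell development, was tested and did not pass (log2 change 0.08). Csrp3, a muscle protein also induced in neurons with cut axons, was at 0.47, 0 and 9.65 FPKM in SCI replicates 1, 2 and 3, against 0.24, 0.05 and 0.20 FPKM in sham replicates 1, 2 and 3. Its highest library was the one with the most muscle and ganglion markers. These genes were named after their values were seen.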
